A study of Drosophila melanogaster with 58 samples.

Results

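The genes described here encode the structural proteins of the fly's cuticle, chosen as every probe whose gene symbol in the platform annotation starts with Ccp84A, Cpr and a digit, Twdl, Lcp, Edg or Acp65A. The rule found 110 genes, measured by 126 of the 23808 probes of the array, of which 13455 carried a single gene symbol. The Cpr genes had 74 probes for 66 genes and the Twdl (Tweedle) genes 26 probes for 24 genes. The Lcp genes had 13 probes for 10 genes, the Ccp84A genes 9 probes for 6 genes, the Edg genes 3 probes and the Acp65A group 1 probe, for Acp65Aa. A single probe stood for 95 of the genes, a pair for 14 and 3 probes for Cpr50Ca, and 3 of the 126 probes named the pseudogenes Lcp65APsi and Lcp1Psi. Another 3 probes named a cuticle gene together with a neighbour and were set aside.

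Insect cuticle is a layer of chitin fibres and protein that the epidermis secretes on its outer face, and in the Drosophila embryo it is laid down late, before the larva hatches. Most of its proteins come from large families whose genes lie in clusters of duplicates. The Cpr, Lcp, Ccp84A and Acp65A proteins, with Edg78E and Edg84A, carry the Rebers-Riddiford domain, which binds chitin. Tweedle proteins are a separate family, in which dominant alleles of TwdlD give short, squat larvae and pupae, and Edg91, named like the other Edg genes for its dependence on ecdysone, encodes a glycine-rich protein.

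Whole Drosophila melanogaster embryos were compared on 58 arrays of 2 colours over a time course in which the dose of gcm was changed, a gene whose product directs cells to become glia and is also used in the blood lineage. On 33 arrays, embryos of the Gal4 line MZ1060 crossed to the UAS-gcm stock B5446, which express gcm ectopically, were set against a pool of equal amounts of mRNA from both parental lines, covering stages 9 to 16 with 4 arrays a stage, or 5 in the case of stage 14. On 25 arrays, embryos homozygous for gcmN7-4 were set against OregonR embryos handled alike, covering stages 10 to 14 and stage 16 with 4 arrays a stage, or 5 in the case of stage 10. Homozygotes were picked by a sorter as embryos that lacked GFP, which came from a balancer with Kr-GFP up to stage 13 and from one with Ubi-GFP after it. Embryos of the cross and its parents were laid within an hour at 25 °C and kept at 29 °C or 18 °C until the stage wanted. Nothing in the labels says in which cells MZ1060 drives expression. The mutants were not compared with their own parental stock, so the gcm allele, the stock's background, the sorting marker and a difference in exact age within a stage cannot be told apart in the mutant ratios. The switch of balancer fell between stages 13 and 14, so balancer and stage cannot be told apart across that step.

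Each value is a log2 ratio of perturbed over wild-type signal for a probe on an array, with the array centred on its median, so that 1 is a 2-fold ratio and 0 is no difference from the typical probe. A probe was called when its limma-moderated p, adjusted over all probes tested in the comparison by the Benjamini-Hochberg method, was under 0.05. The arrays are described as independent experiments, but the labels do not tie them to embryo collections or RNA extracts, so p-values measure the spread between arrays, which may be partly technical. In whole embryos, fewer cells that make a transcript and less transcript per cell cannot be told apart.

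An ectopic gcm array measured 11991 to 23103 of the 23808 probes and a mutant array 10822 to 23253, and over all probes the repeat spots of an array had a median Spearman rho of 0.34 and 0.38. Of the 126 cuticle probes, 51 to 124 were measured on an array, and 116 to 124 on each mutant array of stages 14 and 16. The gcm ratio was above 0 on 31 of 33 ectopic arrays, up to 2.66, and the other 2, both of stage 9, read -0.16 and -0.04. It was below 0 on 23 of 25 mutant arrays, down to -2.40. The exceptions were the array labelled replicate 4 of mutant stage 12 (0.74) and the array labelled replicate 1 of mutant stage 16 (0.27), whose gcm values go against their labels. Whether the gcm probe lies in the part of the gene that gcmN7-4 lacks is unknown here, so it checks the mutant labels only loosely. The counts and medians of families, clusters, probe pairs and gene lists at mutant stage 16 are also given without that array, where the stage is left with arrays of 1 dye orientation. The stage 12 results are also given without the array that goes against its label there, whose labelled orientation is in doubt and was not settled.

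**Figure D1:**
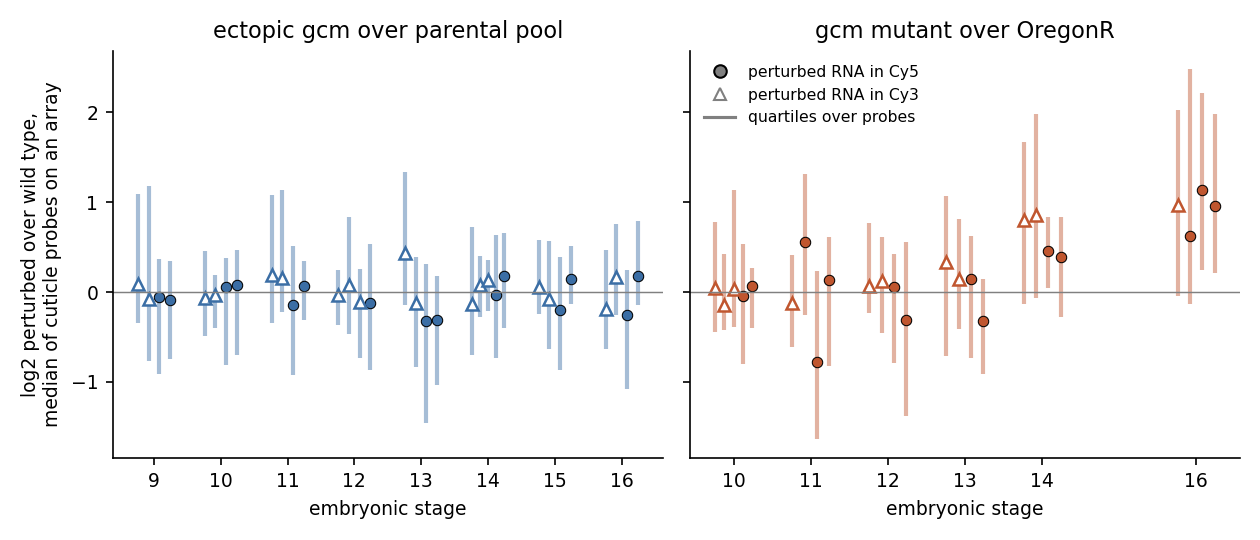
Median log2 ratio of perturbed over wild type over the cuticle probes measured on each array (y axis) by embryonic stage (x axis), for ectopic gcm (left) and gcm mutants (right); vertical lines span the quartiles over probes, circles mark arrays with the perturbed RNA in Cy5 and triangles those with it in Cy3. All 8 mutant arrays of stages 14 and 16 lie above 0, from 0.39 to 1.14, while the ectopic gcm arrays stay between -0.32 and 0.43.

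The cuticle genes as a group stood near 0 in the mutants until stage 13 and above it at stages 14 and 16. Their median over the probes of an array was 0.80, 0.86, 0.46 and 0.39 on replicates 1 to 4 of mutant stage 14, and 0.97, 0.62, 1.14 and 0.96 on those of stage 16. All 8 values were above those of the 4 arrays of stage 13, which ran from -0.32 to 0.33, and of the 5 arrays of stage 10, which ran from -0.14 to 0.07. A single earlier mutant array overlapped the late ones, replicate 2 of stage 11 at 0.56, whose stage also held the lowest array of all at -0.78. At stage 14 the 2 arrays with mutant RNA in Cy3 were the higher ones. At stage 16 the Cy3 array, the one labelled replicate 1, lay among the 3 Cy5 arrays. Of the 107 cuticle probes measured on all 4 arrays of mutant stage 16, 56 (52.3%) were above 0 on every one and 3 (2.8%) below, against 13.4% and 13.8% of all probes so measured. At mutant stage 14 the same held for 50 of 102 (49%) above and 2 (1.96%) below, against 14.9% and 11.4% of all probes.

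At stage 16 many structural cuticle genes were higher in gcm mutants than in OregonR. Of 123 cuticle probes tested, 38 for 36 genes were called higher by limma, against 1.99% of all probes tested. None was called lower, against 1.59% of all probes, and the 3 lower probes with an unadjusted p under 0.05 were Lcp65Ae, Cpr49Ad and Cpr12A. The median over the tested cuticle probes was 0.83 and that over all probes tested -0.01. A fitted ratio over 1 was seen for 57 cuticle probes, against 10.1% of all probes, and one over 2 for 33, against 1.82%. Cuticle genes made up 23 of the 100 probes with the highest ratios among all those called higher. The calls rested on few arrays: 30, 20, 26 and 29 cuticle probes were called without replicate 1, 2, 3 or 4 of that stage. Without the array labelled replicate 1, whose gcm ratio went against its label, the cuticle median was 1.11.

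Of these 38 calls, 20 were kept when any 1 of the 58 arrays was left out and under every other setting that could test them. They came from each of the larger families and included the strongest cuticle results of the study. Some of the 20, such as Cpr78Cb and Cpr11A, could not enter the setting limited to probes measured on every array. Ccp84Ab, of the 84A cluster of cuticle genes, read 2.39, 3.36, 2.75 and 2.44 on replicates 1 to 4. Its fitted log2 ratio was 2.81 ± 0.23 (SE), a 6.99-fold ratio (limma, adjusted p = 1.37e-11). Its neighbour Ccp84Aa read 2.55, 3.27, 2.47 and 2.34 (fit 2.74 ± 0.30, limma adjusted p = 3e-08). All 8 of these values lay above every value of the same probe on the mutant arrays of stages 10 to 13, which reached 0.62 for Ccp84Ab and 0.34 for Ccp84Aa. They also lay above every ectopic gcm array, which reached 1.24 and 1.46. The first of the probes of Ccp84Ad, from the same cluster, read 2.13, 2.57, 2.35 and 0.78 and was fitted at 2.05 ± 0.41 (limma adjusted p = 0.00117), with replicate 4 well below the other 3 arrays.

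Among the chitin-binding Cpr proteins, Cpr100A read 2.08, 2.34, 2.39 and 1.31, a fitted log2 ratio of 2.14 ± 0.22 (limma adjusted p = 6.25e-09). Cpr78Cb had the highest ratio of the stable Cpr calls, 3.23 ± 0.50 (limma adjusted p = 4.53e-05), with arrays at 3.93, 4.68, 2.91 and 1.86. Cpr92F was lower and tighter, at 1.53, 1.29, 1.94 and 1.39 and a fit of 1.57 ± 0.25. All 3 genes were above 1 on every array of stage 16, while Cpr78Cb read between -0.97 and 0.51 at mutant stage 14. The other stable Cpr calls were Cpr11A (fit 2.75), Cpr65Ec (2.59), Cpr65Ea (2.49), Cpr56F (1.88), Cpr97Ea (1.51) and Cpr64Ad (1.42). Each of these 6 was above 0 on all 4 arrays, and the lowest single value among them was that of Cpr64Ad on replicate 1, at 0.53.

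The Tweedle genes gave 6 of the stable calls. TwdlC read 2.39, 2.92, 2.98 and 2.91 and was fitted at 2.87 ± 0.44 (limma adjusted p = 2.92e-05). TwdlK read 2.51, 3.67, 2.81 and 3.16 and was fitted at 3.30 ± 0.68, a 9.87-fold ratio (limma adjusted p = 0.00163). In both genes all 4 arrays were above 2. TwdlM (one of its probes, fit 2.94), TwdlL (2.91), TwdlN (2.85) and Twdlbeta (1.49) completed this group. Edg91, the glycine-rich Edg gene, read 1.69, 1.42, 2.24 and 1.50 (fit 1.76 ± 0.27, limma adjusted p = 3.4e-05). The second of the probes of Lcp65Ag1, a larval cuticle protein gene, read 2.73, 3.46, 2.63 and 2.84 (fit 3.09 ± 0.61, limma adjusted p = 0.00123).

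Ratios of the other 18 calls were as large but their calls were less stable, since each was lost when at least 1 array was left out. Among Cpr genes they were the first of the probes of Cpr49Ag (3.57), both probes of Cpr65Ax2 (3.40 and 3.01), Cpr67Fa1 (3.04), Cpr65Av (2.92), Cpr47Eg (2.74), Cpr67Fa2 (2.59), Cpr51A (2.43), a probe of Cpr5C (1.96) and Cpr67Fb (1.37). Among larval cuticle genes they were Lcp65Ag3 (3.12), the first of the probes of Lcp65Ag1 (3.06), Lcp65Aa (2.99), Lcp65Af (2.79) and Lcp65Ac (2.33), and among Tweedle genes TwdlY (2.60), TwdlD (2.42) and TwdlQ (0.99). All 18 read above 0 on every array that measured them, and all 18 lost the call without replicate 2 of stage 16. The ratios given for these 18 are fits with a dye term, and the stage had 3 arrays in Cy5 and 1 in Cy3. A fit can therefore lie above or below the mean of its arrays. Lcp65Ad shows how the call depends on more than these 4 arrays: it read 2.24, 2.50, 2.20 and 2.26, yet missed the threshold (fit 2.57 ± 0.84, limma adjusted p = 0.0872). Its fit lay above all 4 values. On the other arrays of the study its values spread from -3.43 to 5.20, and the fit draws on that spread.

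Some family members stood apart from this pattern, chosen here after their values were seen. Lcp65Ae read -2.59, -2.27, -4.21 and -1.04 (fit -2.61, limma adjusted p = 0.204), the lowest cuticle ratio of the stage. Edg84A read -2.87, -2.22, -0.67 and 0.46 (fit -1.34, limma adjusted p = 0.417), while Edg78E read 1.59, 2.66, 2.09 and 0.69 (fit 1.80, limma adjusted p = 0.464). Neither Edg gene was called, and the arrays of Edg84A fell on both sides of 0. Acp65Aa, the adult cuticle gene of the 65A cluster, was measured on 3 arrays of 1 dye orientation (0.61, -0.33 and 2.67) and could not be tested.

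**Figure D2:**
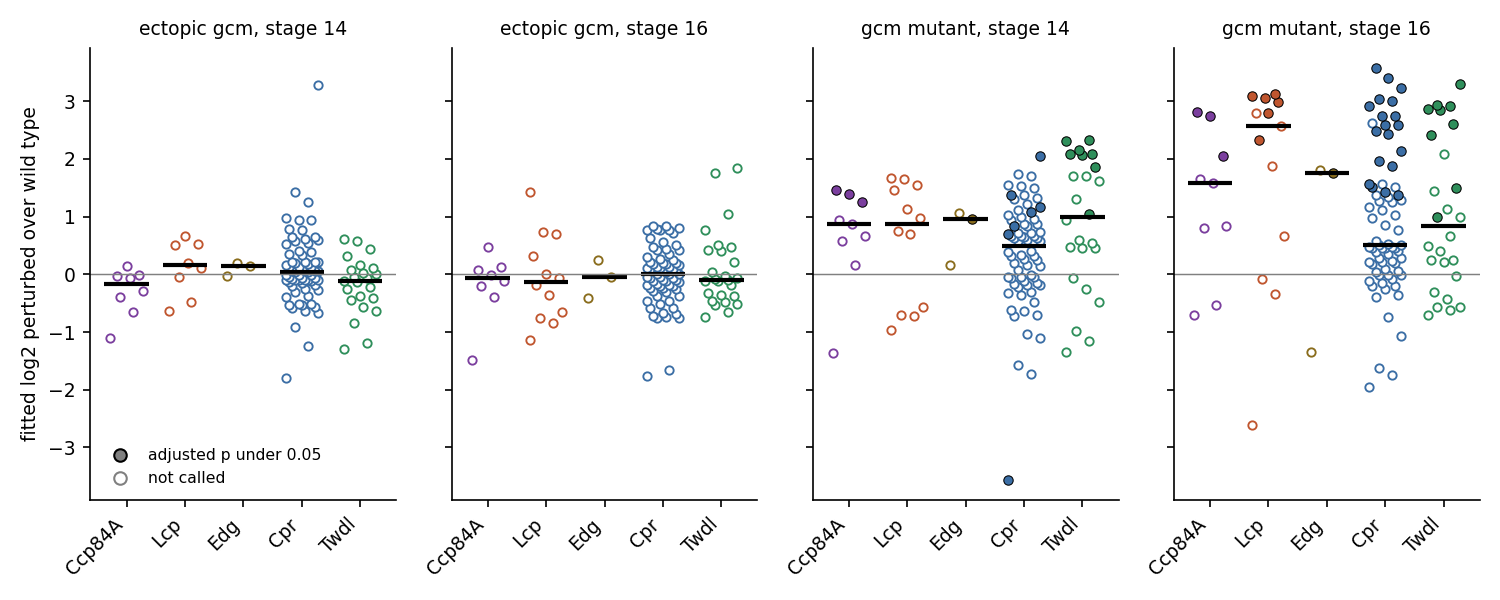
Fitted log2 ratio of perturbed over wild type (y axis) of each tested cuticle probe by family (x axis) at stages 14 and 16, for ectopic gcm and gcm mutants; filled points passed the adjusted threshold of 0.05 and black bars are family medians. At mutant stage 16 the family medians run from 0.51 (Cpr) to 2.57 (Lcp), and at ectopic gcm stage 16 those of the same 5 families run from -0.12 to 0.01.

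By family, the share called higher at mutant stage 16 was 3 of 9 Ccp84A probes, 19 of 72 Cpr probes, 9 of 26 Twdl probes, 6 of 13 Lcp probes and 1 of 3 Edg probes, against 1.99% of all probes. The median ratio was highest in the larval cuticle family at 2.57, then Edg at 1.76, Ccp84A at 1.59, Twdl at 0.83 and Cpr at 0.51. Without replicate 1 these counts were 3, 15, 8, 3 and 1, against 1.4% of all probes called higher, and the medians were 2.01 (Lcp), 1.82 (Edg), 1.77 (Ccp84A), 1.15 (Twdl) and 0.58 (Cpr). Members of a family share sequence and clusters and are not replicates, so the differences between families were not tested. Within each family the spread was wide: the Cpr probes ran from -1.96 to 3.57 and the Lcp probes from -2.61 to 3.12. A group of Cpr genes stayed near 0, among them Cpr47Ee (-0.01), Cpr47Ef (0.04), Cpr73D (0.05) and the probes of Cpr66D (0.19 and 0.10). The SEs of these 5 fitted ratios were 0.17 to 0.24, among the smallest of the family's.

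At stage 14 the mutants already showed part of this pattern. Of 119 cuticle probes tested, 18 for 17 genes were called higher by limma, against 1.8% of all probes, and 1 was called lower, against 0.746%. Their median was 0.63 and that of all probes tested -0.02. Ccp84Ab read 1.35, 2.30, 1.02 and 0.88 (fit 1.39 ± 0.23, limma adjusted p = 0.0002). TwdlC read 3.74, 2.95, 1.40 and 1.16 (fit 2.31 ± 0.43, limma adjusted p = 0.00115). The first of the probes of Cpr66D, another gene of the chitin-binding family, read 1.01, 0.89, 0.65 and 0.82 (fit 0.84 ± 0.16, limma adjusted p = 0.00161). These were the only 3 of the 19 calls of this stage kept with every array left out, and the count was 5, 6, 17 and 9 without replicates 1 to 4. It was also 6 with the mutant arrays fitted alone and 7 with a replicate block in place of the dye term. Of the 19, 2, Ccp84Ab and TwdlC, were kept under every other setting that could test them. In Ccp84Ab and TwdlC, as in most Tweedle calls, replicates 1 and 2, with mutant RNA in Cy3, were above replicates 3 and 4, with it in Cy5. TwdlK, for example, read 4.12, 2.90, 1.37 and 0.93. The gcm ratio differed between the same arrays, at -2.03, -1.36, -0.19 and -0.45, and its part in the result was not tested.

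By family, the calls of higher probes at stage 14 were 8 of 24 Twdl probes, 3 of 9 Ccp84A probes, 6 of 70 Cpr probes, 1 of 3 Edg probes and 0 of 12 Lcp probes, of which 4 had an unadjusted p under 0.05. Over all probes 1.8% were called higher. The Tweedle calls were TwdlK (2.33), TwdlC (2.31), TwdlD (2.16), TwdlE (2.09), TwdlN (2.09), TwdlL (2.06), TwdlF (1.86) and Twdlbeta (1.05). In the Ccp84A family Ccp84Aa (1.46) and Ccp84Ac (1.26) joined Ccp84Ab. The Cpr calls were Cpr65Ea (2.05), Cpr56F (1.38), Cpr97Ea (1.17), Cpr64Ad (1.08) and both probes of Cpr66D (0.84 and 0.70), and Edg91 was at 0.96. The probe called lower was the third of the probes of Cpr50Ca, which read -0.89, -3.13, -3.97 and -6.23 (fit -3.56, limma adjusted p = 0.0139), while the other 2 probes of that gene were fitted at -1.04 and 0.66 and not called.

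Of the 18 probes called higher at stage 14, 13 were also called at stage 16, which is 72.2% of the stage 14 calls and 34.2% of the stage 16 calls. Over all probes 122 were called higher at both, which is 30.3% of the 403 at stage 14 and 28.1% of the 434 at stage 16, and the difference between these shares was not tested. Without replicate 1 of stage 16, the cuticle probes called at both were again 13, out of 18 and 30. Across the 117 cuticle probes tested at both stages the fitted ratios correlated at r = 0.40 (rho = 0.43), against r = 0.16 over all probes. These are correlations across probes, which are not independent, and both stages share the dye term of the fit. A direct comparison of stage 16 with stage 14, added after the values were seen, called 3 cuticle probes higher at stage 16, against 0.0727% of all probes, and 0 lower, against 0.116%, with 24 at an unadjusted p under 0.05 in either direction. They were Cpr78Cb (difference 3.35 ± 0.70, limma adjusted p = 0.0294), Cpr100A (1.42 ± 0.31, limma adjusted p = 0.032) and Ccp84Ab (1.42 ± 0.33, limma adjusted p = 0.0498). Cpr11A, which read 0.04, 0.00, 0.00 and -0.22 at stage 14 and 3.19, 3.55, 2.40 and 1.90 at stage 16, missed the threshold (2.80 ± 0.68, limma adjusted p = 0.0656). The 5 probes called only at stage 14 belonged to Cpr66D, Ccp84Ac, TwdlE and TwdlF. TwdlF read 2.89, 1.84, 0.82 and 1.89 at stage 14 and -2.09, -1.66, 0.25 and 1.51 at stage 16, but the difference of -2.28 ± 0.63 was not called (limma adjusted p = 0.128), so none of these 5 was shown to be particular to stage 14.

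**Figure D3:**
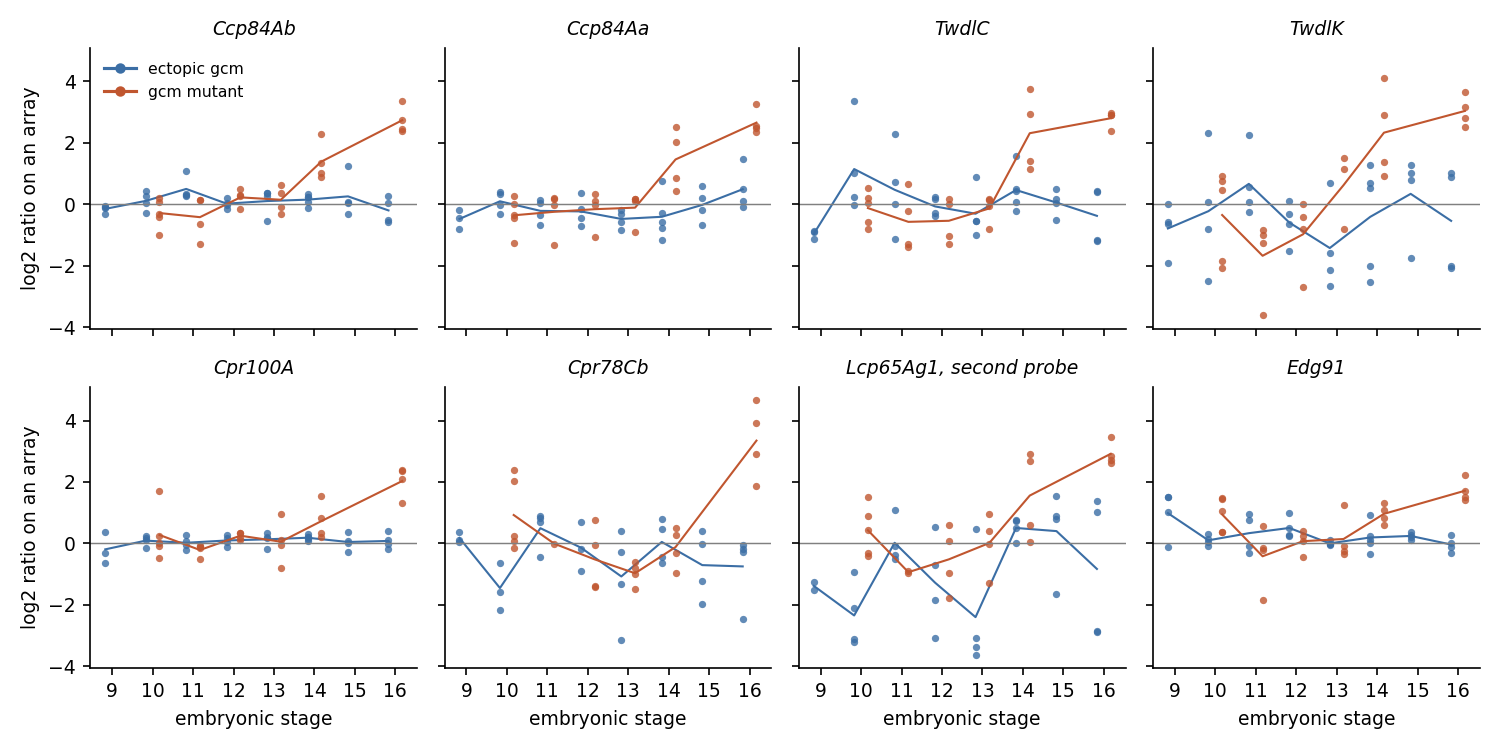
Log2 ratio of perturbed over wild type on each array (y axis) by embryonic stage (x axis) for 8 cuticle probes; points are arrays and lines join stage means, blue for ectopic gcm and red for gcm mutants. In each panel all 4 mutant arrays of stage 16 lie above 1, the lowest being that of Cpr100A on replicate 4, at 1.31.

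Mutant ratios were higher at stages 14 and 16 than before. The 38 probes called at mutant stage 16 had medians of 0.10, -0.11, -0.13 and 0.09 at mutant stages 10 to 13, then 1.09 at stage 14 and 2.74 at stage 16. Since stage 16 chose these probes, its own value is a description, and the values of the other stages come from other arrays. At stage 14, 35 of the 38 were above 0. The other cuticle probes, set apart by the same choice, rose less. Their medians were -0.02, 0.02, 0.04 and 0.11 at mutant stages 10 to 13, 0.32 at stage 14 and 0.35 at stage 16. At stage 14, 48 of 79 of them were above 0. Setting stages 13, 14 and 16 against stages 10 to 12, as the design did, 16 of 80 cuticle probes tested were called higher late by limma, against 3.96% of all probes, and 0 lower, against 1.6%. The largest late differences were TwdlK (3.09 ± 0.55), a probe of TwdlM (2.41 ± 0.50), TwdlC (2.08 ± 0.35), the first of the probes of Lcp65Ag1 (2.03 ± 0.60) and Lcp65Af (2.02 ± 0.60). Ccp84Ab (1.60 ± 0.18, limma adjusted p = 1e-07) and Ccp84Aa (1.60 ± 0.24, limma adjusted p = 1.43e-05) had the smallest p-values. The other 9 were TwdlN (1.95), TwdlL (1.91), TwdlD (1.71), Cpr65Ea (1.47), Cpr56F (1.25), Cpr64Ad (0.89), Cpr100A (0.85), Twdlbeta (0.82) and Edg91 (0.75). The count was 12 without replicate 1 of mutant stage 14 and 22 without replicate 2 of mutant stage 11. With stage 13 counted as early instead, a comparison added after the values were seen, 22 of 80 were called higher at stages 14 and 16, against 2.58% of all probes, and 0 lower, against 1.24%. Stage 14 set against stage 13 alone, added after the values were seen, called 0 of 110 cuticle probes in either direction by limma, against 0.0147% of all probes higher and 0.0049% lower, with 25 at an unadjusted p under 0.05 and a median difference of 0.68.

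Averaged over the 6 mutant stages, 25 of 80 cuticle probes tested, for 24 genes, were called higher by limma, against 13.9% of all probes, and 1 lower, against 13.8%. Their median was 0.23. Ccp84Ab (0.65 ± 0.09, limma adjusted p = 3.63e-07), Cpr100A (0.55 ± 0.09), Cpr92F (0.62 ± 0.10), Twdlbeta (0.53 ± 0.10) and Edg91 (0.58 ± 0.11) had the smallest p-values. The largest average ratios among the higher ones were those of Lcp65Ad (1.41 ± 0.35, limma adjusted p = 0.00193) and Cpr65Av (1.08 ± 0.31). Those of the 84A cluster and the Tweedle genes were smaller, at 0.56 for Ccp84Aa, 0.49 for Ccp84Ac, 0.88 for TwdlN, 0.86 for TwdlE, 0.73 for TwdlD, 0.71 for TwdlL, 0.64 for TwdlC and 0.30 for TwdlQ. The other Cpr calls lay between 0.21, for the second of the probes of Cpr66D, and 0.98, for Cpr47Eg, with Cpr65Ec at 0.91, Cpr65Ea at 0.72, Cpr5C at 0.65, Cpr56F at 0.60, Cpr97Ea at 0.57, Cpr67Fb at 0.50, Cpr66D's first probe at 0.34 and Cpr47Ee at 0.24. Cpr49Ad, a chitin-binding cuticle gene, was the probe called lower (-1.15 ± 0.32, limma adjusted p = 0.0064), and its 3 measured stage 16 arrays read -2.18, -3.48 and -0.31. Of the 25 calls with the smallest p, 22 were kept when any 1 array was left out and 13 under every other setting that could test them. The call of Cpr47Ee, with the largest p, was not checked in this way. The calls of Cpr47Eg, TwdlD and the second of the probes of Cpr66D were lost when a single array was left out. That of Cpr47Eg was lost without replicate 2 of mutant stage 11 (0.72) and that of TwdlD without replicate 1 of mutant stage 14 (0.66).

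At single mutant stages before 14, cuticle calls were few. Stage 10 had 1 higher of 124 tested (Edg91, 0.92), against 2.96% of all probes. Stage 11 had 1 higher of 99 (the second of the probes of Cpr65Ax2, 2.79), against 2.89%, and 1 lower (Cpr78E, -2.13), against 5.79%. At stage 12, 3 of 109 were higher, against 4.41%, and 2 lower, against 2.91%: Cpr47Ee (0.63) and both probes of Cpr66D (0.50 and 0.71) were up, and TwdlG (-2.56) and a probe of Ccp84Ae (-1.88) down. Without replicate 4 of stage 12, whose gcm ratio went against its label, 0 of 109 were called higher, against 2.05% of all probes. Only 1 was called lower, against 3.38%, the probe of Ccp84Ae (-2.42, limma adjusted p = 0.0314). The others were not called: Cpr47Ee was at 0.71, the probes of Cpr66D at 0.40 and 0.64 and TwdlG at -2.99, with limma adjusted p from 0.0509 to 0.225. At stage 13, 1 of 114 was higher (Cpr47Ef, 0.94), against 5.89%, and 2 lower (Cpr11A, -1.58, and Cpr57A, -0.97), against 3.71%. Each of these 11 calls was lost without at least 1 array. Summed over the 6 mutant stages, 68 of 688 tests of cuticle probes were called (9.88%, 62 higher and 6 lower), against 6.09% over all probes, and 57 of the 68 fell at stages 14 and 16.

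**Figure D4:**
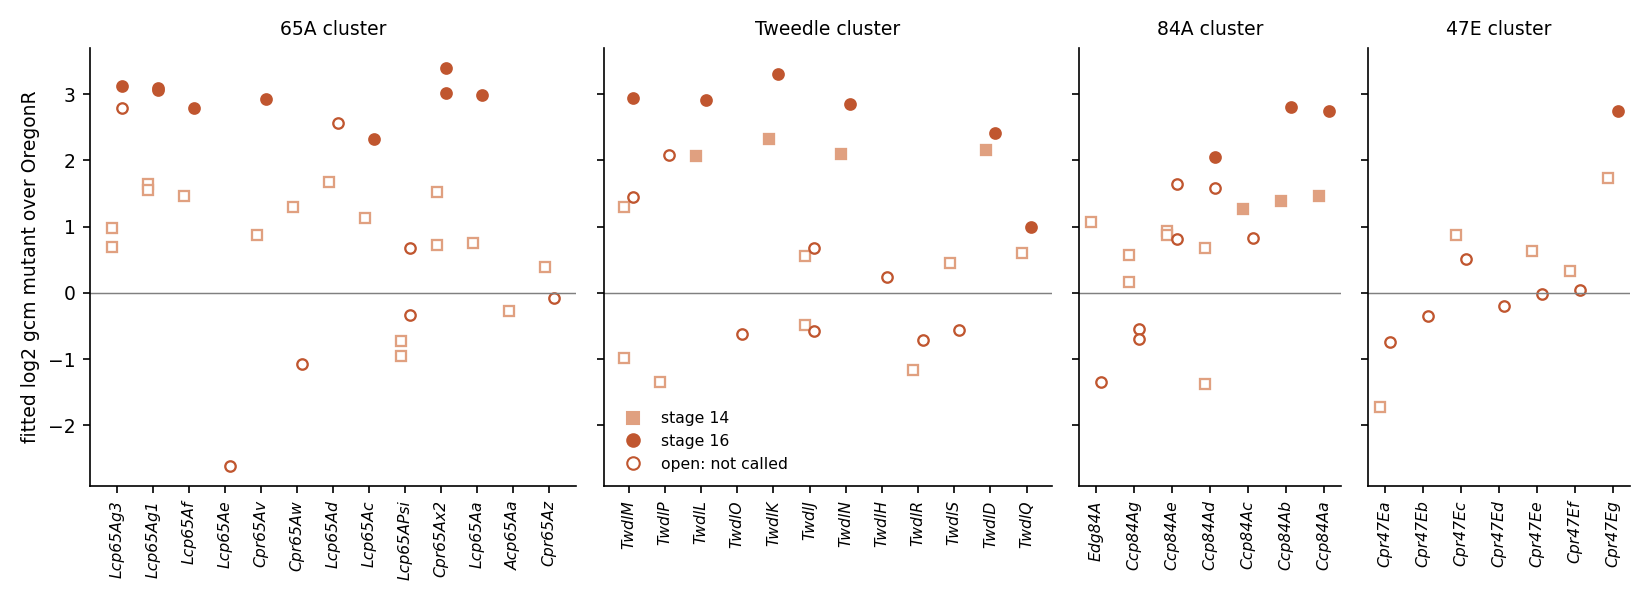
Fitted log2 ratio of gcm mutants over OregonR (y axis) for the genes of 4 chromosomal clusters, in the order of the genes along the chromosome (x axis); squares are stage 14, circles stage 16, and filled symbols passed the adjusted threshold of 0.05. Called and uncalled genes lie side by side, as Lcp65Af (2.79) and Lcp65Ae (-2.61) do at 65A.

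Cuticle genes lie in clusters, taken here as runs of members with at most 2 other genes between neighbours. Over all probes 1.99% were called higher at mutant stage 16, the stage of the counts that follow. The longest cluster, at 65A on chromosome arm 3L from Lcp65Ag3 to Cpr65Az, holds 13 genes, and 9 of its 16 tested probes were called higher at that stage, with a median of 2.79. Within it the uncalled Cpr65Aw (-1.07) and Lcp65Ae (-2.61) sit next to called genes such as Cpr65Av (2.92) and Lcp65Af (2.79). In the Tweedle cluster of 12 genes from TwdlM to TwdlQ on 3R, 6 of 14 probes were called higher (median 1.22), while TwdlO (-0.62), TwdlR (-0.71) and TwdlS (-0.56) were below 0 and not called. In the 84A cluster from Edg84A to Ccp84Aa, also on 3R, the calls were in Ccp84Aa, Ccp84Ab and the first of the probes of Ccp84Ad. Ccp84Ac, which lies between Ccp84Ab and Ccp84Ad, was at 0.83 and not called. The probes of Ccp84Ag, beside Edg84A, were at -0.54 and -0.70 and not called. In the 47E cluster on 2R, Cpr47Eg was the only 1 of 7 called, and the cluster's median was -0.01. The 4 Cpr76B genes had 0 of 5 probes called (median -0.12, limma, adjusted p from 0.516 up), while the trio of Cpr67F genes had 3 of 3. Without replicate 1 of that stage the counts were 5 of 16 at 65A (median 3.03), 6 of 14 in the Tweedle cluster (1.74), 3 of 10 at 84A (1.38), 0 of 7 at 47E (0.17), 0 of 5 at 76B (0.42) and 1 of 3 at 67F (2.82), against 1.4% of all probes. At ectopic gcm stage 16 the medians of these clusters lay between -0.22 and 0.20. Closely similar copies, such as Lcp65Ag1 and Lcp65Ag3, Cpr67Fa1 and Cpr67Fa2, or the copies of Cpr65Ax, could share signal on a probe, so their separate values are uncertain.

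Probes of the same gene did not always give the same ratio. Of 17 probe pairs tested at mutant stage 16, 14 had the same sign and 12 were within 1 log2 unit, 2 pairs were both called and 5 had 1 of 2 called. Without replicate 1 of that stage only 10 of the 17 had the same sign. At mutant stage 14 it was 9 of 16, and the 7 with opposite signs included Ccp84Ad (0.67 and -1.37), Cpr49Ag (0.65 and -1.57) and TwdlM (1.30 and -0.99). The probes of Lcp65Ag1 (3.06 and 3.09) and Cpr65Ax2 (3.01 and 3.40) were both called. In Ccp84Ad the ratios were 2.05 and 1.59, with only the former called, and in Cpr49Ag they were 3.57 and 1.34. The 2 probes of Cpr66D, both called at stage 14, were at 0.19 and 0.10 at stage 16 and neither was called.

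**Figure D5:**
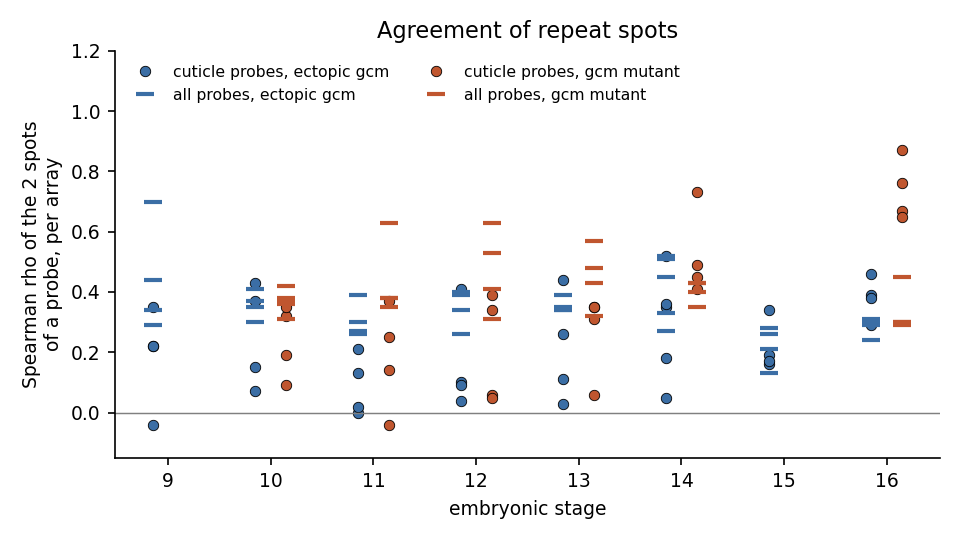
Spearman rho between the repeat spots of a probe on each array (y axis) by embryonic stage (x axis), over the cuticle probes (circles) and over all probes (bars), in blue for ectopic gcm and red for gcm mutants. On the mutant arrays of stage 16 the cuticle probes reach 0.65 to 0.87, above all probes on the same arrays.

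The table gives ratios without intensities, so the agreement of the repeat spots is the only measure in it of whether a cuticle probe gave a steady signal. Over the cuticle probes the 2 spots of an array had a median rho of 0.21 (-0.04 to 0.52) on ectopic gcm arrays and 0.31 (-0.04 to 0.39) on mutant arrays of stages 10 to 13, below the medians of 0.34 and 0.38 over all probes. On mutant arrays of stages 14 and 16 it was 0.66 (0.41 to 0.87), above the 0.38 of all probes. Between arrays of mutant stage 16, cuticle probes correlated at a median rho of 0.58 (0.50 to 0.75 over 6 pairs of arrays), and between those of stage 14 at 0.33, against 0.17 and 0.16 over all probes. Between arrays of ectopic gcm stage 16 the median was -0.14, against 0.09 over all probes. A wider range of true ratios raises such a correlation by itself, so at stages without differences it does not show whether the genes were measured.

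In embryos with ectopic gcm, cuticle genes showed no common shift. At stage 16, 0 of 122 tested cuticle probes were called by limma, against 0.144% of all probes higher and 0.0784% lower, with 2 at an unadjusted p under 0.05 and a median of -0.04. Stage 14 had 0 of 112 called (1.21% and 0.373% of all probes), with 4 under 0.05, stage 15 had 0 of 122 (0.459% and 0.0218%), with 3, and stage 12 had 0 of 115 (1.91% and 0.155%), with 10. Over the 8 stages 9 of 931 tests were called (0.967%), against 2.86% over all probes. At stage 9 Edg91 (0.98) was higher, against 4.75% of all probes, and Cpr49Ac (-2.34) lower, against 4.62%. At stage 10 Cpr49Ae (3.19) and Cpr67Fb (1.27) were higher, against 3.21%, and both probes of Lcp65Ag1 (-2.95 and -2.35) lower, against 1.14%. Stage 11 had Cpr72Ec (1.67) higher, against 2.47%, and nothing lower, against 0.43%. At stage 13 Cpr57A (1.00) was higher, against 2.57%, and the second of the probes of Lcp65Ag1 (-2.41) lower, against 0.579%. Each of the 9 was lost without at least 1 array.

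Averaged over the 8 stages of ectopic gcm, 4 of 81 cuticle probes tested were called higher by limma, against 14.1% of all probes, and 2 lower, against 13.6%, with a median of -0.01. The higher ones were Cpr67Fb (0.51 ± 0.14, limma adjusted p = 0.00313), Cpr72Ec (0.44 ± 0.16), Edg91 (0.29 ± 0.09) and Cpr73D (0.26 ± 0.08). The lower ones were the first of the probes of Lcp65Ag1 (-0.91 ± 0.26, limma adjusted p = 0.00684) and TwdlF (-0.43 ± 0.15). Cpr72Ec lost its call with each of 7 arrays left out and TwdlF with each of 6. The members of the other families with the largest average ratios, TwdlN (-0.52), Edg78E (0.31) and the second of the probes of Ccp84Ag (-0.29), were not called. Between late and early stages of ectopic gcm, 0 of 81 cuticle probes were called higher by limma, against 0.298% of all probes, and 2 lower, against 1.06%, with 5 at an unadjusted p under 0.05. They were the neighbours Cpr67Fa1 (-2.12 ± 0.54, limma adjusted p = 0.0388) and Cpr67Fb (-1.06 ± 0.27, limma adjusted p = 0.0343), and neither call was kept under every left-out array.

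At ectopic gcm stage 16 few probes of any kind were called, 0.144% higher and 0.0784% lower. The arrays of that stage disagreed, with a median rho between them of 0.09 over all probes and -0.14 over cuticle probes. TwdlK read -2.07, 1.03, -2.00 and 0.87 on replicates 1 to 4 of ectopic gcm stage 16. TwdlN read -2.14, 0.66, -1.61 and 1.03, and the first of the probes of Lcp65Ag1 read -0.94, 1.14, -3.79 and 1.00. In all 3 genes replicates 1 and 3 were below 0 and replicates 2 and 4 above, while the perturbed RNA was in Cy3 on replicates 1 and 2 and in Cy5 on 3 and 4. The median over the 38 probes called at mutant stage 16 followed the same order, at -0.50, 0.72, -0.63 and 0.52. At ectopic gcm stage 15 it was 0.38, 0.28, -0.44 and 0.29, and at stage 14 it was -0.23, 0.28, 0.24, -0.72 and 0.47. On the same stage 16 arrays the median of the chitin assembly list was -0.48, 0.34, -0.15 and 0.48 and that of the muscle list -0.20, 0.83, 0.38 and 1.04. The gcm ratio was 1.97, 1.33, 2.16 and 1.73. The part of these in the split of the arrays was not tested. Ccp84Ab and Cpr100A did not split in this way: at stage 16 they read -0.58, 0.03, -0.52 and 0.26, and 0.41, 0.10, -0.18 and -0.02.

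Set directly against each other over the 6 stages of both experiments, ectopic gcm and mutant ratios differed in 12 of 66 cuticle probes, all lower with ectopic gcm than in mutants, against 6.45% of all probes, while 0 were higher, against 11%, with 23 at an unadjusted p under 0.05 in either direction (limma). Differences were largest for the first of the probes of Lcp65Ag1 (-1.55 ± 0.43), TwdlN (-1.48 ± 0.34, limma adjusted p = 0.00127), TwdlL (-1.18 ± 0.33) and Cpr65Ea (-1.04 ± 0.29). The other 8 were Cpr65Ec (-0.83), Ccp84Aa (-0.68), Cpr92F (-0.60), Ccp84Ab (-0.54), Ccp84Ac (-0.53), Cpr100A (-0.46), Twdlbeta (-0.42) and Cpr23B (-0.27). Of these 12 calls, TwdlN alone was kept under every left-out array and every other setting that could test it. TwdlN was not measured on every array, so the setting limited to such probes did not test it. Fitting each experiment alone gives no such difference for any probe. The experiments used different wild types, so the difference is between 2 ratios and not between 2 genotypes on an array. Restricted to stages 14 and 16, a comparison added after the values were seen, 29 of 102 probes were lower with ectopic gcm, against 2.65% of all probes, and 0 higher, against 1.73%, with a median difference of -0.70. Ccp84Ab (-2.13 ± 0.23, limma adjusted p = 1.5e-08), Ccp84Aa (-2.05), TwdlC (-2.56), TwdlK (-3.31) and Cpr100A (-1.31) were among them.

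Other genes of cuticle formation were tested as lists at mutant stage 16, where 1.99% of all probes were called higher and 1.59% lower. The lists named from here on were chosen with earlier results of these data known. On a list of chitin and cuticle assembly genes, 1 of 15 tested was called higher, obst-E, which encodes a chitin-binding protein (2.40 ± 0.42, limma adjusted p = 0.000223), and the median was 0.19. In the same list kkv, the chitin synthase gene, was at -0.89 (limma adjusted p = 0.483) and mmy, which makes the substrate of chitin synthesis, at 0.76 (limma adjusted p = 0.11). On the tanning list 1 of 9 was called, Ddc, the dopa decarboxylase that supplies dopamine for hardening and colouring cuticle (2.91 ± 0.58, limma adjusted p = 0.00164). None of 11 epidermal regulators and hair genes was called by limma (median -0.28, 4 at an unadjusted p under 0.05), and of 11 genes of moult hormone synthesis and response 1, the nuclear receptor gene Hr39 (1.03, limma adjusted p = 0.0198). Without replicate 1 of stage 16 the chitin assembly and tanning lists had 1 limma call each (medians 0.33 and 0.84), the epidermal list none (0.05) and the moult hormone list none (0.20). Over all probes 1.4% were then called higher and 1.12% lower. At stage 14 the counts were 1 of 15 (Cda5, a chitin deacetylase gene, 1.15), then 0 of 10, 0 of 11 and 0 of 12 by limma, with 1, 2 and 4 at an unadjusted p under 0.05. Over all probes 1.8% were called higher at that stage and 0.746% lower.

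Some markers of other tissues moved too. Of 12 blood cell genes 4 were lower at mutant stage 16, against 1.59% of all probes, led by PPO2 (-2.73) and PPO1 (-2.56), the prophenoloxidases of crystal cells. Of 10 glial genes 2 were lower, alrm (-4.06) and loco (-0.64). The other glial genes were not called and ran from -0.53 (wrapper) to 0.48 (rumpel), with repo at -0.06, and the list's median was -0.27. None of 9 muscle genes, another late tissue, was called there by limma (median 0.55, 1 at an unadjusted p under 0.05), nor any of 10 maternal RNAs (median 0.28, 3 under 0.05). On the 4 arrays the muscle median was -0.28, 0.35, 0.65 and 1.30, while the cuticle median was 0.97, 0.62, 1.14 and 0.96. Without replicate 1 the calls were 3 of 12 blood cell genes and 1 of 10 glial genes lower, against 1.12% of all probes, and no muscle or maternal gene. The medians were -0.77, -0.26, 0.90 and 0.03. At mutant stage 14, 1 of 9 muscle genes (Prm, 1.82) and 4 of 11 maternal RNAs were called higher, against 1.8% of all probes. There the muscle medians were 1.15, 1.59, -0.01 and 0.84 and the maternal medians -0.17, 0.34, 1.16 and 1.70, beside cuticle medians of 0.80, 0.86, 0.46 and 0.39. The part of these in the cuticle ratios was not tested. Among mutant stage 16 arrays the array labelled replicate 1, whose gcm ratio was 0.27, had a cuticle median of 0.97 and a blood cell list median of -0.79, beside -0.95, -0.32 and -0.07 on the others.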

How the data were processed

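The authors deposited a log2 ratio, Cy5 over Cy3, for each of 47616 spots on 58 spotted arrays of 2 colours, per the labels, and every array was used. That their base is 2 was read from the values, and the background correction and normalization are not given in the sources used here. Values of exactly 0 and those of size 9 or more were taken as missing, the 2 spots of a probe (1984 positions apart) were averaged, the median of an array was subtracted from its values, and the sign was set so that perturbed RNA is the numerator. Each of the 23808 probes was fitted by least squares on 14 group means and 1 dye term for each experiment, the variances were moderated with limma 3.58.1 in R 4.3.3, and p-values (2-sided) were adjusted by Benjamini-Hochberg over all probes tested. A probe was tested in a group measured on at least 3 arrays and in both dye orientations. Late stages were 13 to 16 and early stages 9 to 12 with ectopic gcm, and 13, 14 and 16 against 10 to 12 in mutants.

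The members and gene lists were chosen with earlier results of these data known. In each comparison the named probes were those called, up to the 25 with the smallest p, and each family's largest average ratio. The other 43 of the 68 calls at single mutant stages, single-array values chosen as examples, and genes named as low, near 0 or not called were named after their values were seen. All 126 member symbols were unchanged in the reference table of gene names. No probe or gene sequence and no coordinates are printed. On simulated data with 100 probes changed by a log2 of 2, the stage 16 mutant fit recovered 45, and of 100 changed by 1 it recovered 14, with 9.23% of calls false over 21756 probes. The simulated noise was normal and independent between probes. The measured values need not be either, so these rates may not carry over to them. Alternatives covered centring, zeros, extreme values, spot agreement, the dye term, missing values, the arrays fitted together, a block on replicate number, and leaving out each array.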

Additional observations from a re-analysis of the deposited data

Results flagged for a closer look

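In groups of 4 or 5 arrays, sets of values were looked at for 1 array far from the others. The cut-off flags about 1 in 20 independent, unselected sets of normal values. Most sets here were probes named because they were called at the same stage, so that rate does not hold for them. Of 87 sets, 8 held such an array. For the median of all cuticle probes these were replicate 1 of ectopic gcm stage 9, at 0.09 against -0.09 to -0.06, and replicate 4 of mutant stage 12, at -0.31 against 0.06 to 0.12, the array whose gcm ratio went against its label. 3 of the probes called at mutant stage 16 had replicate 2 far above the rest: the first probe of Cpr5C (2.58 against 1.74 to 1.82), the first of Lcp65Ag1 (3.49 against 2.53 to 2.66) and the first of Cpr65Ax2 (3.37 against 2.30 to 2.48). In TwdlC replicate 1 of the same stage was below the rest (2.39 against 2.91 to 2.98). The second probe of Lcp65Ag1 at ectopic gcm stage 13 read 0.47 on replicate 1 and -3.64 to -3.07 on the others, and the second probe of Ccp84Ae at mutant stage 12 read -5.94 on replicate 3 and -0.85 to 0.01 on the others.

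Some genes had ratios that differed between late and early stages by limma. In mutants the late ratio was higher for TwdlK (3.09), TwdlM (2.41), TwdlC (2.08), Lcp65Ag1 (2.03), Lcp65Af (2.02), TwdlN (1.95), TwdlL (1.91), TwdlD (1.71), Ccp84Aa (1.60), Ccp84Ab (1.60), Cpr65Ea (1.47), Cpr56F (1.25), Cpr64Ad (0.89), Cpr100A (0.85), Twdlbeta (0.82) and Edg91 (0.75). With ectopic gcm it was lower for Cpr67Fa1 (-2.12) and Cpr67Fb (-1.06).

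Between the experiments, the ectopic gcm ratio was below the mutant ratio for Lcp65Ag1 (-1.55), TwdlN (-1.48), TwdlL (-1.18), Cpr65Ea (-1.04), Cpr65Ec (-0.83), Ccp84Aa (-0.68), Cpr92F (-0.60), Ccp84Ab (-0.54), Ccp84Ac (-0.53), Cpr100A (-0.46), Twdlbeta (-0.42) and Cpr23B (-0.27).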

How the results depend on the processing

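Of 138 named calls, 68 were kept with every array left out and 49 under all other settings that could test them. A setting that could not test a probe was not counted against its call. No named call changed direction under any setting that tested it. The counts of cuticle probes called were 6 for the ectopic gcm average, 26 for the mutant average, 2 and 16 for late minus early with ectopic gcm and in mutants, 12 between experiments, 9 and 68 over single stages, and 19 and 38 at mutant stages 14 and 16. Without centring they were 2 (ectopic average), 0 and 40 (late minus early), 3 (between experiments), 1 (ectopic single stages) and 12 (mutant stage 14), and the cuticle medians at mutant stages 14 and 16 were 1.06 and 1.27, beside 0.44 and 0.41 over all probes. With spot pairs of an SD under 0.333 only, they were 3 and 4 for the averages, 0 and 1 for late minus early and 2 between experiments, with medians of 1.01 and 1.67 at the late mutant stages. With a replicate block in place of the dye term they were 1 and 16 for the averages, 2 between experiments, 41 over mutant single stages and 7 at mutant stage 14. Deviations of arrays with the same number and dye orientation had a median r of 0.03 and 0.04, as those with other numbers did (0.03 in both experiments), so the numbers were not taken to pair arrays. With each experiment fitted alone, 41 were called over mutant single stages and 6 at stage 14. With zeros kept, ectopic single stages had 3. For probes measured on every array the ectopic average had 3. The 2 ectopic late minus early calls became 0 with zeros kept, for probes on every array and for stages 15 and 16 against 9 to 14, and 1 without values of 5 or more, without the dye term, without the filter on missing values, or without arrays lacking over 40%. With values of 5 or more left out, the ectopic averages of the second probe of Ccp84Ag and of Edg78E, neither of them called, changed sign to 0.07 and -0.13. Windows added after seeing the data gave 29 between experiments at stages 14 and 16, 3 for mutant stage 16 minus 14 and 0 for 14 minus 13. The cause of these changes was not tested.

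Leaving out each array in turn gave 4 to 7 and 25 to 30 for the averages, 0 to 2 and 12 to 22 for late minus early, 9 to 16 between experiments, 6 to 11 and 49 to 72 over single stages, and 5 to 22 and 20 to 39 at mutant stages 14 and 16, whose medians ran from 0.55 to 0.68 and 0.79 to 1.11. With 4 arrays a stage, ratios without intensities and up to 54.5% of values missing on an array, a gene that was not called may still differ.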

Other observations

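The 3 probes set aside for naming a second gene were not counted among the members. The probe shared by TwdlL and TwdlB was higher at mutant stage 14 (2.28, limma adjusted p = 0.0335) and at stage 16 (3.44 ± 0.63, limma adjusted p = 0.000392). A probe shared by Cpr31A and CG33301 was higher at mutant stage 16 (2.13 ± 0.40, limma adjusted p = 0.000538), and the other probe of that pair could not be tested there.

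By chromosome arm, 16 of 46 cuticle probes on 3L were called higher at mutant stage 16, against 4.47% of all probes of that arm, and 14 of 36 on 3R, against 2.08%. On 2R it was 5 of 26, against 2.35%, on X 3 of 9, against 1.77%, and on 2L 0 of 6 by limma, against 1.91%, with 1 at an unadjusted p under 0.05.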
